A study of Bos taurus with 8 samples.

Results

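The interferon response module of cattle comprises the genes that sense interferon, relay its signal and are induced by it. It was examined here in day 6 Holstein and Jersey embryos through 33 named members, among them the IFITM membrane proteins and the immune GTPase GIMAP4. Every array probe whose annotated symbol, or an older synonym of it, was a member name was taken, which gave 38 of 43794 probes, for 30 genes. Of these, 35 probes matched by symbol and 3 through a synonym, namely both IFI27 probes (annotated as ISG12(A)) and the DHX58 probe (annotated as LGP2). IFITM1, IFIT1 and DDX58 matched no probe under these names. A probe was kept for testing when its signal exceeded the negative control spots in Holstein or in Jersey on at least 4 of 8 arrays, and 29 member probes for 24 genes met this, out of 32129 probes in all.

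RNA from Holstein and Jersey embryos was hybridised together on 8 two-colour arrays of bovine embryo transcripts, spread over 2 slides, with 4 replicates of each breed in both dye orientations. The labels describe the Holstein group as embryos of good cryotolerance and the Jersey group as embryos that perform poorly after freezing. Both groups were produced in vivo: donors were superovulated with FSH, given a prostaglandin analogue, inseminated with pooled semen and flushed on day 6. Neither the sex of the embryos nor the number of embryos or donors behind a replicate is given in the sources used here. The p-values therefore measure the spread between these replicates, which may be technical. Of 8 embryo marker genes, 8 were kept. This does not test the tissue label, since 7 of 7 probed uterine epithelium markers and 6 of 6 probed erythrocyte markers were kept too.

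Type I interferons bind a receptor made of IFNAR1 and IFNAR2, which carries the kinases TYK2 and JAK1. The kinases activate STAT2 and its partners, which together with IRF9 switch on a large set of antiviral genes. In ruminants the trophectoderm of the early embryo itself secretes an interferon, interferon tau, which signals pregnancy to the mother. IFITM proteins sit in cell membranes and hinder the entry of viruses. They are induced by interferon and are also present without it in some stem cells and early embryos. GIMAP4 belongs to a family of GTPases best known from lymphocytes.

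Values are log2(Holstein / Jersey) of each dye-swap pair, so that a value below 0 means more signal in Jersey, and levels are log2 intensities of each breed's channel in the same pair. IFITM3 stood about 1.90-fold higher in Jersey embryos on both of its probes, and GIMAP4 stood 7.93-fold higher. Jersey was the higher breed for both genes in each of the 4 pairs and on 8 of 8 arrays. IRF7 had the next largest ratio, which was set mainly by 1 pair. Most receptor, kinase, sensor and antiviral effector probes had ratios near 0 or were too dim to measure. Less RNA per cell and fewer cells that carry a transcript cannot be told apart in RNA of whole embryos.

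On pair means, limma with Benjamini-Hochberg adjustment over all kept probes called 0 of the 29 member probes at 0.05, and the share called over all probes was 0%. At an unadjusted p under 0.05 there were 5 member probes higher in Jersey (IFITM3 on both probes, GIMAP4, IRF3 and IRF9) and 1 higher in Holstein (STAT2). That is 20.7% of the kept member probes, beside 14% of all kept probes. The surplus came from GIMAP4 and the IFITM3 probes, which are both annotated to the same gene. Of the 26 kept probes of other members, 2 had such a p toward Jersey and 1 toward Holstein, a share below that of all kept probes. The member list was drawn up knowing earlier results of these data, so the shares do not test whether the module differs more than other genes. A second limma fit took the 8 arrays singly, allowed for dye and treated each pair as a random block. It called 3 member probes, or 10.3%, beside 3.77% of the 32033 probes it covered. These were the IFITM3 probes and GIMAP4, and all 3 were higher in Jersey, where the fit called 2.14% of all probes. Among the 26 kept probes of other members this fit called 0. It weighs arrays singly and rests on the same data, so it adds no independent support.

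**Figure D1:**
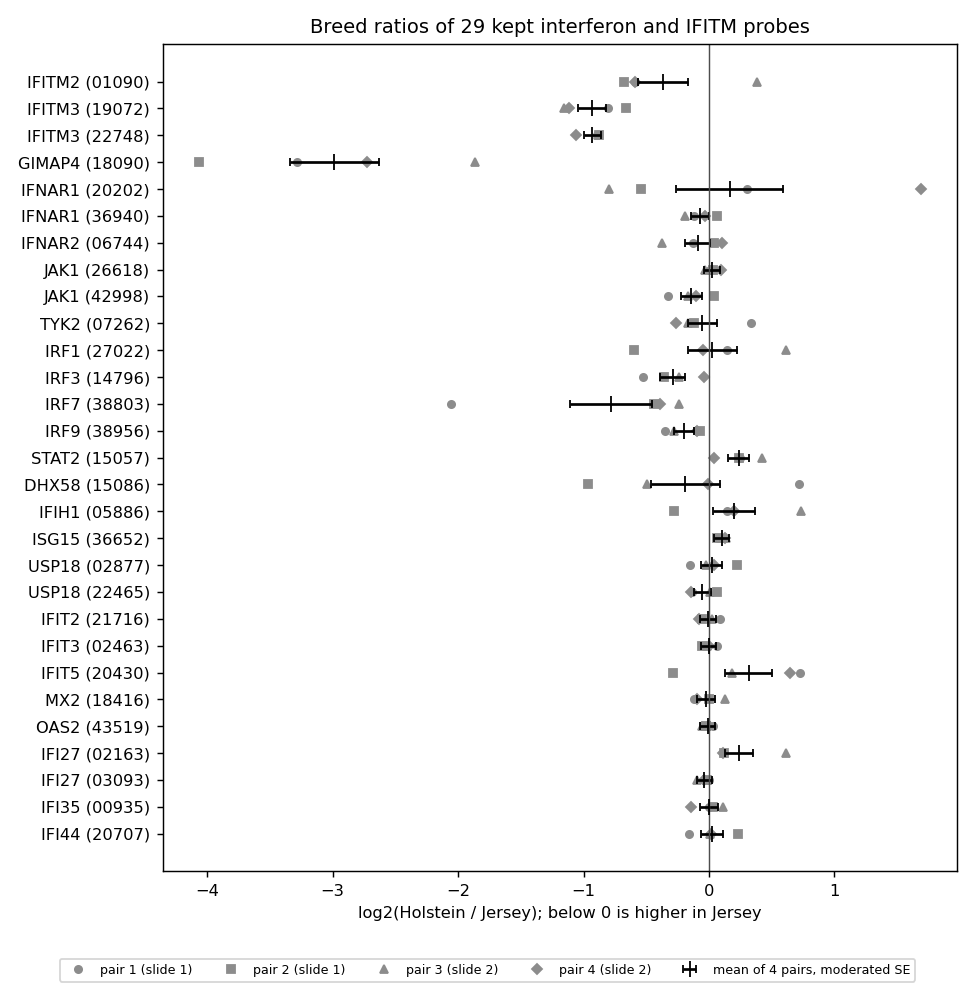
Log2(Holstein / Jersey) of the 29 kept member probes (rows, with the last digits of the probe name), by role. Grey symbols are the 4 dye-swap pairs, black bars the mean and its moderated SE. GIMAP4 lies near -2.99 and the IFITM3 probes near -0.93, whereas most other rows straddle 0.

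Across the kept member probes 18 ratios lay below 0 and 11 above it. The share below 0 was 62.1%, beside 49.3% of all kept probes, and the median was -0.02 for the members and 0.00 for all. An absolute log2 ratio under 0.25 was found for 22 of 29 member probes, or 75.9%, beside 79.6% of all. Apart from IFITM3 and GIMAP4, the remaining 26 kept probes had 15 ratios below 0 and 11 above, a median of -0.01 and a range from -0.78 to 0.32.

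IFITM3 is the member of its family best known for blocking viruses that enter through endosomes. The levels on probe EMBV3_22748 (gene on chromosome 29) were 10.16, 9.82, 9.40 and 8.97 in the Holstein replicates of pairs 1 to 4. The Jersey replicates of the same pairs had 11.05, 10.69, 10.29 and 10.03. The breeds overlapped in level, since the pairs themselves differed, but Jersey was the higher within each pair and by a similar amount. The pair ratios were -0.89, -0.88, -0.89 and -1.06, with a mean of -0.93 ± 0.07 (moderated SE, n = 4 pairs). Its unadjusted p in limma was 2.51e-05 and its adjusted p 0.0738, with 0.00184 under the random block. Among the 14019 probes above background in both breeds on all 8 arrays, where 0.342% were called in either direction, 0.307% of them higher in Jersey and 0.0357% higher in Holstein, its adjusted p was 0.0438.

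The second IFITM3 probe, EMBV3_19072, gave the same size of difference. Its Holstein levels were 13.63, 13.49, 12.83 and 12.56, and its Jersey levels 14.43, 14.15, 13.99 and 13.67. Here every Jersey replicate lay above every Holstein replicate, a separation seen in 2.89% of all kept probes (2.63% had Holstein above). The pair ratios of -0.81, -0.66, -1.15 and -1.12 averaged -0.93 ± 0.11 (SE, n = 4 pairs), a 1.91-fold difference. The adjusted p in limma was 0.0885 on pair means, 0.00212 under the random block and 0.0586 among the probes above background throughout. The ratio was larger in size on slide 2, at -1.14, than on slide 1, at -0.73, with an unadjusted p of 0.0451 for the difference in limma, and no probe on the array passed this test after adjustment.

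IFITM2, a close relative of IFITM3, was measured by 1 probe (EMBV3_01090, chromosome 11 in RefSeq). Its levels were 8.66, 7.98, 9.07 and 7.97 in Holstein and 9.26, 8.66, 8.69 and 8.56 in Jersey. Jersey was higher in pairs 1, 2 and 4, by ratios of -0.59, -0.68 and -0.59, and lower in pair 3, at 0.38. The mean was -0.37 ± 0.20 (SE, n = 4 pairs; adjusted p = 0.496 in limma), and without replicate 3 it was -0.62 (adjusted p = 0.293). IFITM genes are near copies of each other, and which transcripts each probe binds was not tested.

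The RefSeq annotation of ARS-UCD2.0 gives IFITM3 as a synonym of 2 loci, LOC777594 and LOC282255, which lie on either side of IFITM1 on chromosome 29. A probe annotated as LOC777594 (EMBV3_29724) is no member by its array symbol and was looked up after the IFITM3 values were seen. Its Holstein levels were 13.97, 13.58, 13.04 and 12.79 and its Jersey levels 14.66, 14.41, 14.04 and 13.91. The pair ratios were -0.69, -0.82, -1.002 and -1.12, a mean of -0.91 ± 0.09 (SE, n = 4 pairs; adjusted p = 0.0793 on pair means and 0.00112 under the random block, both in limma). It may read the same transcript as an IFITM3 probe, which was not tested. Other measured genes within 8 genes of LOC777594 had smaller ratios: -0.05 for LOC613699, -0.20 for PKP3, -0.01 for SIGIRR, -0.25 ± 0.27 for ANO9 and -0.07 for RNH1. The member IRF7, at -0.78 ± 0.33, lies beyond this stretch on the same chromosome, 7 genes past RNH1 in the RefSeq order.

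**Figure D2:**
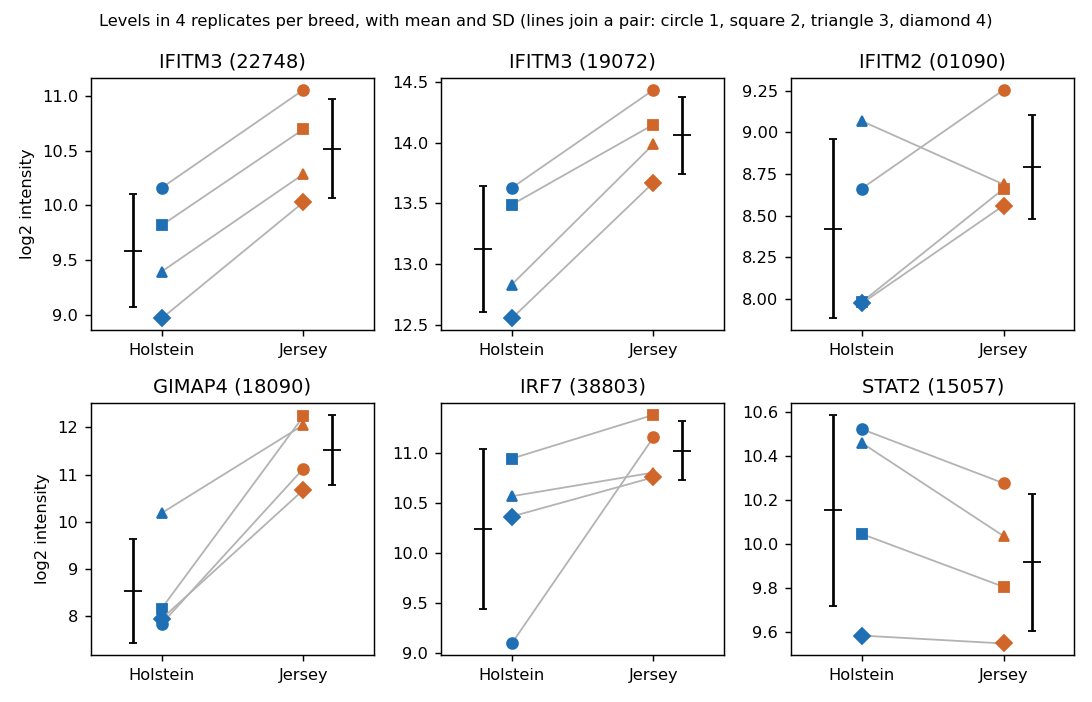
Log2 intensity of 6 member probes in the 4 Holstein and 4 Jersey replicates; lines join the breeds of a dye-swap pair, and bars beside them are the mean and SD of each breed. The lines of both IFITM3 probes and of GIMAP4 all rise toward Jersey, IFITM2 has 1 line that falls, IRF7 has 1 steep line, and STAT2 falls slightly.

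GIMAP4 (EMBV3_18090, chromosome 4) had the largest difference among the members. Its Holstein levels were 7.84, 8.16, 10.18 and 7.94, and its Jersey levels 11.12, 12.23, 12.05 and 10.67. The breeds did not overlap, as for 2.89% of all kept probes with Jersey above. The Holstein replicate of pair 3 stood above the other Holstein replicates and still below every Jersey replicate. The pair ratios were -3.29, -4.07, -1.87 and -2.73, with a mean of -2.99 ± 0.35 (SE, n = 4 pairs). In limma the adjusted p was 0.0885 on pair means, 0.000795 under the random block and 0.0438 among the probes above background throughout. Signal was above background in both breeds on all 8 arrays, so the Holstein level is a measured one. The mean was -3.68 on slide 1 and -2.30 on slide 2, a difference of 1.38 with an unadjusted p of 0.0282, whereas over all kept probes 4.08% had an unadjusted p under 0.05 for such a difference.

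The other kept genes listed under a GIMAP name did not show this, whereas a locus lying among them, LOC768255, was also higher in Jersey. Of 6 listed, 5 had a probe and 4 were kept, with 1 ratio below 0, 3 above and an unadjusted p under 0.05 for 0 of them in limma, beside 14% of all kept probes. GIMAP8 had a ratio of 0.00 ± 0.07, GIMAP6 of 0.11 ± 0.12 and GIMAP1, on its brightest probe, of 0.10 ± 0.08. LOC614871, which has GIMAP7 as a synonym, had -0.12 ± 0.07. LOC768255 (EMBV3_25342) stands 3 genes from GIMAP4 in the RefSeq order, between GIMAP4 and GIMAP6. It was found by going through that neighbourhood after the values were seen. Its pair ratios were -1.01, -1.64, -0.86 and -0.56, with a mean of -1.02 ± 0.18 (SE, n = 4 pairs; adjusted p = 0.145 on pair means and 0.0074 under the random block in limma). Of 12 leukocyte markers, 8 were kept. LCP1, ITGAM and ITGB2 were above background on 0 arrays and CD3D was too dim to keep, and the summed linear levels of the kept markers ran from 2253 to 3865 in Holstein and from 2294 to 3531 in Jersey. Of these markers only CD3E had an unadjusted p under 0.05, with a ratio of -0.27 ± 0.09, and PTPRC stood at -0.16 ± 0.09.

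Among the receptor chains and their kinases, no member differed beyond its spread. The 6 kept probes had 4 ratios below 0, 2 above and a median of -0.06, and 0 had an unadjusted p under 0.05 or passed the random block in limma, beside 14% and 3.77% of all probes. IFNAR1, the receptor chain that binds TYK2, was inconsistent on its brightest probe (EMBV3_20202). Holstein levels of 9.17, 8.18, 7.75 and 10.01 met Jersey levels of 8.87, 8.73, 8.55 and 8.32. The pair ratios were 0.30, -0.54, -0.80 and 1.69, a mean of 0.16 ± 0.43 (SE, n = 4 pairs), and without replicate 4 the mean was -0.35. Its Holstein levels had an SD of 1.01 and its Jersey levels one of 0.24. A second IFNAR1 probe stood at -0.07 ± 0.07, and the remaining one was too dim to keep.

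IFNAR2, the chain that binds JAK1, had a ratio of -0.09 ± 0.10 (SE, n = 4 pairs) with pairs between -0.37 and 0.10. The JAK1 probes gave 0.03 ± 0.06 and -0.14 ± 0.08. TYK2 was above background in both breeds on all 8 arrays, with levels of 9.21 to 9.61 in Holstein and 9.27 to 9.62 in Jersey. Its mean ratio of -0.06 ± 0.12 came from pairs between -0.26 and 0.33.

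The transcription factors held most of the remaining small p-values. IRF7, which drives the later, amplified wave of interferon production, had levels of 9.10, 10.94, 10.56 and 10.36 in Holstein and 11.15, 11.38, 10.80 and 10.75 in Jersey (EMBV3_38803, chromosome 29). Jersey was higher in all 4 pairs and on 8 of 8 arrays, a pattern shown by 2.72% of probes (2.31% had Holstein higher on all 8), but the size came mainly from pair 1. The pair ratios were -2.05, -0.44, -0.24 and -0.39, with a mean of -0.78 ± 0.33 (SE, n = 4 pairs; adjusted p = 0.386 on pair means and 0.121 under the random block in limma). Without replicate 1 the mean was -0.35. The low value of pair 1 was the same on both of its arrays, -2.05 and -2.06.

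IRF3 is the factor that starts interferon production when viral RNA or DNA is sensed. Its levels were 8.70, 8.52, 8.71 and 8.79 in Holstein and 9.23, 8.88, 8.94 and 8.83 in Jersey, without overlap. The gap was narrow, from 8.79 to 8.83, and 2.89% of all kept probes were separated with Jersey above. The pair ratios of -0.53, -0.36, -0.24 and -0.04 averaged -0.29 ± 0.10 (SE, n = 4 pairs; adjusted p = 0.29 in limma). The probe had a dye effect: its breed ratio averaged 0.12 on the 4 arrays with Holstein in Cy5 and -0.70 on those with Jersey in Cy5 (adjusted p of the dye term in limma = 0.0084). Pair means hold both orientations equally, so a dye effect cancels in the mean.

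IRF9 binds DNA within the complex formed with STAT2. It was likewise higher in Jersey in all 4 pairs, at -0.35, -0.07, -0.28 and -0.10, from Holstein levels of 7.08, 7.35, 7.17 and 7.21 and Jersey levels of 7.43, 7.43, 7.45 and 7.31. The mean was -0.20 ± 0.08 (SE, n = 4 pairs; adjusted p = 0.357 in limma), again with a dye effect, at 0.08 on arrays with Holstein in Cy5 and -0.48 on those with Jersey in Cy5. Holstein exceeded background on 4 of 8 arrays and Jersey on 7. STAT2 went the other way. Its levels were 10.52, 10.04, 10.46 and 9.58 in Holstein and 10.28, 9.80, 10.03 and 9.55 in Jersey. The pair ratios of 0.25, 0.24, 0.42 and 0.04 averaged 0.24 ± 0.08 (SE, n = 4 pairs; adjusted p = 0.32 in limma), and the levels of the breeds overlapped. IRF1, an early interferon-induced factor, had pairs from -0.60 to 0.61 and a mean of 0.03 ± 0.20, and IRF2 was above background on 0 arrays.

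**Figure D3:**
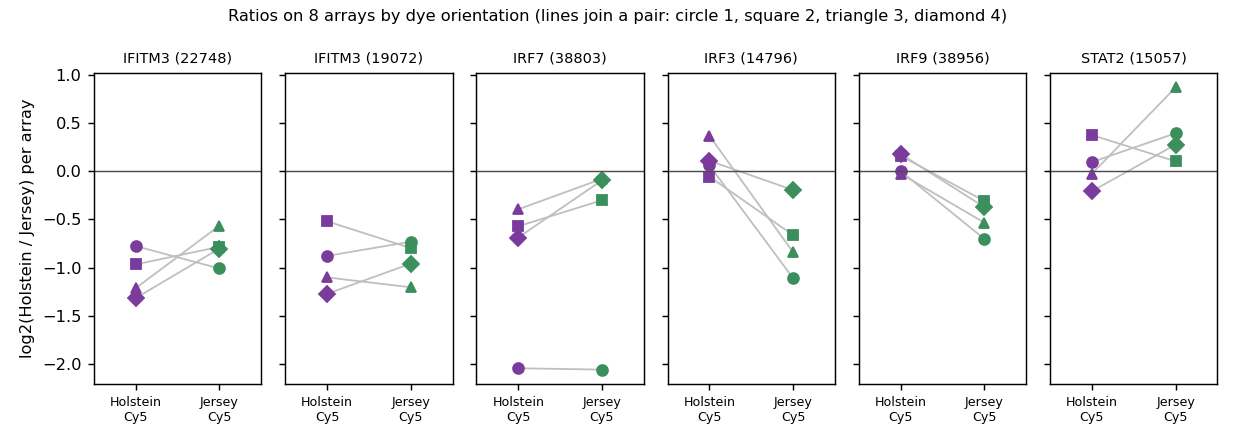
Log2(Holstein / Jersey) on each of the 8 arrays for 6 member probes, split by the breed carried in Cy5; lines join the arrays of a pair. The IFITM3 probes lie below 0 in both orientations, IRF7 does so with 1 pair near -2.05, whereas IRF3 and IRF9 lie near 0 with Holstein in Cy5 and below 0 with Jersey in Cy5.

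A dye effect was called for 6 of 29 kept member probes, or 20.7%, beside 27.2% of all probes in the limma fit of 8 arrays. Besides IRF3 and IRF9 these were probes of ISG15, IFI27, IFIT5 and USP18. For the 2 IFITM3 probes the adjusted p of the dye term was 0.191 and 0.942, and for GIMAP4 it was 0.884. The breed ratio differed between slides for 0 of 29 member probes after adjustment, as for 0% of all kept probes.

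The sensors of viral RNA had no consistent direction. IFIH1, which detects long double-stranded RNA, had a ratio of 0.20 ± 0.17 (SE, n = 4 pairs), with pairs from -0.28 to 0.74. DHX58, a regulator of the other sensors, spread from -0.96 to 0.72 around a mean of -0.19 ± 0.28. EIF2AK2, the kinase that halts translation when it meets double-stranded RNA, was above background on 1 array for Holstein and on 0 for Jersey and was not kept.

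ISG15, a ubiquitin-like modifier, is commonly used to read the response of the uterus and blood to interferon tau. Its kept probe had levels of 7.30 to 7.52 in Holstein and 7.24 to 7.46 in Jersey, with a mean ratio of 0.10 ± 0.06 (SE, n = 4 pairs). A second ISG15 probe was above background on 3 arrays for Holstein and on 0 for Jersey. USP18, the protease that removes ISG15 from proteins, stood at 0.02 ± 0.08 and -0.05 ± 0.07 on its kept probes. None of these ratios exceeded 2 SE.

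The induced antiviral effectors were the dimmest group. Of 9 probes, 4 were not kept: ISG20, an exonuclease, RSAD2, an inhibitor of viral replication, a second IFIT5 probe, and MX1, an antiviral GTPase, which was above background on 2 arrays for Holstein and on 0 for Jersey. The 5 kept probes had ratios from -0.02 to 0.32. IFIT2 and IFIT3, interferon-induced antiviral proteins with tetratricopeptide repeats, stood at -0.01 ± 0.07 and 0.00 ± 0.06 (SE, n = 4 pairs). OAS2, which makes the signal for RNA decay, stood at -0.01 ± 0.06, and the GTPase MX2 at -0.02 ± 0.07. IFIT5 had pairs of 0.73, -0.29, 0.19 and 0.65 and a mean of 0.32 ± 0.19 (adjusted p = 0.544 in limma), with Jersey signal above background on 3 arrays.

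The other induced genes also had ratios near 0, at low signal for IFI44, which was above background on 6 arrays for Holstein and on 3 for Jersey. IFI27, a small protein strongly induced by type I interferon, had pair ratios of 0.12, 0.12, 0.61 and 0.11 on one probe, a mean of 0.24 ± 0.11 (SE, n = 4 pairs; adjusted p = 0.424 in limma) that was 0.12 without replicate 3. Its other probe stood at -0.04 ± 0.06. IFI35 had a ratio of 0.00 ± 0.07 and IFI44 of 0.02 ± 0.08, and IFI6 was above background on 1 array for each breed and was not kept.

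**Figure D4:**
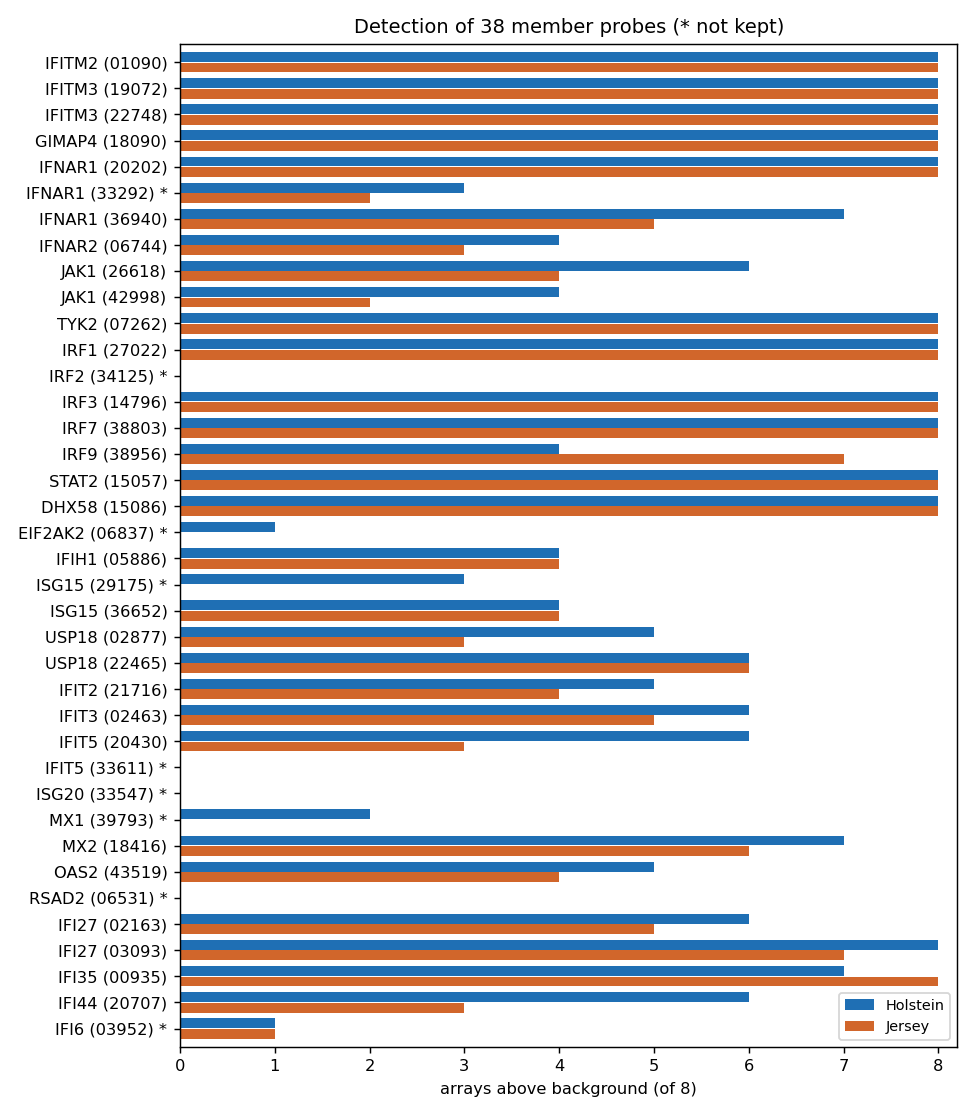
Number of arrays, of 8, on which each of the 38 member probes was above background in Holstein (blue) and in Jersey (orange); an asterisk marks the 9 probes not kept. The IFITM probes, GIMAP4, TYK2, IRF1, IRF3, IRF7, STAT2, DHX58 and 1 IFNAR1 probe reach 8 in both breeds.

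The members were detected about as often as other probes. In all, 9 of 38 were too dim, or 23.7%, beside 26.6% of all probes. There were 11 member probes above background in both breeds on all 8 arrays and 4 above it on none. For the dim ones a breed difference was not detectable at this signal. Several kept probes lay close to this limit. OAS2 and IFIT2 were above background on 5 arrays for Holstein and on 4 for Jersey. The kept ISG15 probe was so on 4 and 4, and IFNAR2 on 4 and 3. Mean levels of OAS2 were 7.12 in Holstein and 7.13 in Jersey, beside 7.03 and 6.86 for MX1, which was not kept. A ratio near 0 at such levels does not show equal RNA.

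Beyond the members, 121 further genes of the pathway were followed in 5 lists (ligands, receptors and signalling, sensing and adaptors, induced genes, and GIMAP genes). Of these, 85 had a probe and 63 were kept, and each gene is given by its brightest kept probe. The median ratio was 0.00, with 34 genes higher in Jersey and 29 higher in Holstein. At an unadjusted p under 0.05 there were 6 in Jersey and 7 in Holstein, where the shares of all kept probes were 7.34% and 6.61%. The shares include dim probes, whereas the genes are given by their brightest. Among the 14019 probes above background in both breeds on all 8 arrays, 2775 had such a p in limma, beside 4482 of all 32129. The random block called 4 in Jersey and 1 in Holstein, beside 2.14% and 1.64% of all probes.

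Higher in Jersey were PARP12, an interferon-induced ADP-ribosyltransferase, and LGALS3BP, a secreted glycoprotein that binds galectins. PARP12 had levels of 12.22, 11.94, 11.88 and 12.15 in Holstein and 12.98, 12.50, 12.96 and 12.89 in Jersey, with no overlap and a mean ratio of -0.78 ± 0.10 (SE, n = 4 pairs; adjusted p = 0.0927 on pair means and 0.0111 under the random block in limma). LGALS3BP had 11.17, 11.30, 10.85 and 11.24 in Holstein and 12.17, 12.14, 11.96 and 11.76 in Jersey, again apart, with a mean of -0.86 ± 0.11 (adjusted p = 0.0927 and 0.00359). Levels without overlap and with Jersey above were seen in 2.89% of all kept probes. RNF135, a ubiquitin ligase that activates RNA sensing, stood at -0.99 ± 0.20, while its other kept probes stood at -0.08 ± 0.19 and -0.19 ± 0.12. The galectin LGALS9 stood at -0.61 ± 0.16 with a dye effect (adjusted p = 0.00754 in limma), and 3 further probes of it lay between -0.08 and 0.08. The phosphatase PTPN6 had a smaller ratio, -0.25 ± 0.08.

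Higher in Holstein was PIAS1, a SUMO ligase that restrains STAT signalling. Its levels were 10.61, 10.97, 10.77 and 10.65 in Holstein and 10.01, 10.07, 10.37 and 10.41 in Jersey, without overlap, and its ratio was 0.53 ± 0.12 (SE, n = 4 pairs; adjusted p = 0.186 on pair means and 0.04 under the random block in limma). Levels without overlap and with Holstein above were seen in 2.63% of all kept probes. The scramblase PLSCR1 stood at 0.48 ± 0.12, with 0.02 ± 0.18 and 0.20 ± 0.17 on its other kept probes. DTX3L, a ubiquitin ligase, had 0.57 ± 0.15, the regulator IFRD1 had 0.50 ± 0.15, and the nucleotide kinase CMPK2 had 0.23 ± 0.06. The last of these had signal above background on 5 arrays for Holstein and on 3 for Jersey.

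**Figure D5:**
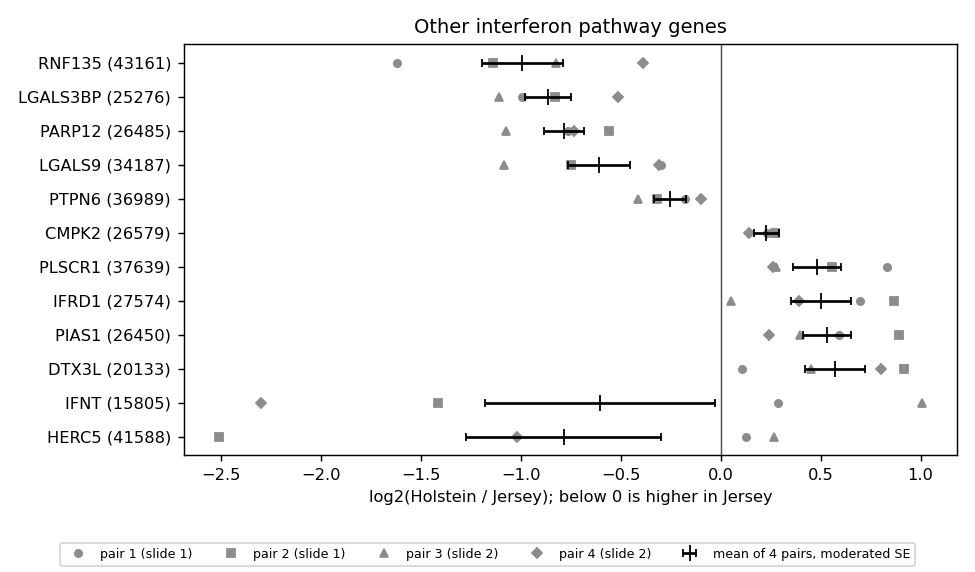
Log2(Holstein / Jersey) of 10 further pathway genes with the smallest p, and of IFNT and HERC5. Grey symbols are the 4 dye-swap pairs, black bars the mean and its moderated SE. The first 10 keep 1 direction in all pairs, while IFNT and HERC5 lie above 0 in pairs 1 and 3 and below 0 in pairs 2 and 4.

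Of the interferons themselves, 4 of 8 probed genes were kept and 0 were at an unadjusted p under 0.05 in limma, beside 14% of all kept probes. IFNT, interferon tau, was singled out after its values were seen. Its levels were 10.48, 9.54, 11.81 and 8.03 in the Holstein replicates and 10.20, 10.96, 10.80 and 10.33 in the Jersey replicates. The Holstein replicates spread with an SD of 1.59 and the Jersey replicates with one of 0.36. The pair ratios were 0.29, -1.42, 1.01 and -2.30, a mean of -0.61 ± 0.58 (SE, n = 4 pairs; adjusted p = 0.735 in limma), and the 2 arrays of each pair had the same sign. HERC5, the ligase that attaches ISG15, was chosen in the same way and had pair ratios of 0.12, -2.51, 0.27 and -1.02, a mean of -0.79 ± 0.49. In the same pairs ISG15 had ratios of 0.07, 0.06, 0.14 and 0.13, and IFITM3 was below 0 in every one. The kept ISG15 probe was above background on only 4 of 8 arrays for each breed and had a dye effect. Its ratios on single arrays ran from -0.53 to 0.65. Whether ISG15 followed IFNT or HERC5 therefore cannot be read from this probe.

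Transcripts of other origin were also read beside these results. XIST, the RNA of female cells that shuts down an X chromosome, had pair ratios of -3.22, -3.43, -3.52 and -1.56. It was thus higher in Jersey in every pair, as IFITM3 and GIMAP4 were. Its ratio was smallest in size in pair 4, whereas that of GIMAP4 was smallest in pair 3, at -1.87. Of the kept members, 0 lie on chromosome X. Of 7 erythrocyte markers, 6 had a kept probe, 4 with a ratio below 0 and 2 above. Taken singly, 0 of them had levels without overlap and with Jersey above, beside 2.89% of all kept probes. Their summed linear levels, which weigh bright probes most, were 1217 to 1508 in Holstein and 1810 to 5593 in Jersey. These sums did not overlap, and a share over all probes was not computed for such sums. The sums for 8 embryo markers were 55296 to 76050 in Holstein and 67088 to 78861 in Jersey, and those for 7 uterine epithelium markers 1817 to 2205 and 1768 to 2086. For 5 kept cumulus or granulosa markers they were 1398 to 1648 in Holstein and 1097 to 1312 in Jersey, again without overlap. On their brightest probes, 2 of these markers had a ratio below 0 and 3 above. Only 1 had levels without overlap and with Holstein above, beside 2.63% of all kept probes. The part of embryo sex, of erythrocyte RNA or of RNA from the other cell types in the member ratios was not tested.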

How the data were processed

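Embryo RNA of both breeds was measured on 8 two-colour arrays. Per the file headers, the deposited scanner files hold the raw intensity of foreground and local background per spot at 532 nm (Cy3) and 635 nm (Cy5). A further deposited column, of the kind other, marks spots ignored at quantification (131 in all). A deposited table of values has a log2 ratio for each probe, with scale and centring unstated. Against the scanner values it correlated at -0.98 to -0.99 with log2(Holstein / Jersey), so it runs Jersey over Holstein, with column medians from -0.04 to 0.03.

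In R 4.3.3 with limma 3.58.1, foreground was corrected with normexp (offset 50) and normalized by loess within arrays, with control and ignored spots at weight 0. Probes above the mean plus 2 SD of 153 negative controls on at least 4 arrays for either breed were kept. The arrays' median spot intensities ran from 171 to 265 (Cy5) and from 230 to 316 (Cy3), and the number of arrays limits precision. The labels do not give the dye-swap pairs. Of 24 matchings, the one with the highest correlations of residuals (0.46 to 0.71) was used, which joins neighbouring arrays. Pair means were tested with lmFit and eBayes, with errors as moderated SE. Levels are channel intensities after loess and Aquantile.

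Symbols come from the platform annotation, with 1 symbol for 21790 probes and none for 22004, and chromosomes from RefSeq (ARS-UCD2.0). All probes of a member are given. Per-pair values are given for IFITM2, IFITM3, GIMAP4 and probes with an unadjusted p under 0.05 or called by the random block, and of the further lists for up to 10 genes of smallest p. LOC777594, LOC768255, XIST, HERC5 and IFNT, and the pair values of IRF7, IFNAR1, IFIT5, IFI27 and ISG15, were added after values were seen. The members and lists were chosen with earlier results of these data known. The fits were tested on simulated data. Probe, protein and promoter sequences were not used here.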

Additional observations from a re-analysis of the deposited data

Results flagged for a closer look

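Of 39 probes examined, among them the 29 kept member probes and 10 further pathway genes, 4 had 1 pair that stood apart from the other 3 by Dixon's test, and chance flags about 1 in 20. IFITM2 (EMBV3_01090) had a log2(Holstein / Jersey) of 0.38 in pair 3, with the other pairs between -0.68 and -0.59. IFITM3 (EMBV3_22748) had -1.06 in pair 4, with the others between -0.89 and -0.88, a gap that is small on the scale of the difference itself. IFI27 (EMBV3_02163) had 0.61 in pair 3, with the others at 0.11 to 0.12. IRF7 (EMBV3_38803) had -2.05 in pair 1, with the others between -0.44 and -0.24. The cause of these values was not tested.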

How the results depend on the processing

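On pair means the number of all probes past the adjusted threshold was 0, and it was 70 with median foreground, 48 with only probes above background in both breeds on all 8 arrays and 3853 with the other matching within each slide. For the replicate block, the 8-array fit called 1209 probes with the pair as a random block and 2054 with a dye term and no block. Of the member probes, 0 passed on pair means, 1 with median foreground (GIMAP4) and 2 among probes above background throughout (GIMAP4 and IFITM3 on EMBV3_22748). With the random block 3 member probes passed, with no block 3, and with the other matching 4, which adds IRF7. Plain background subtraction, offset 16, median centring, scaling between arrays, no filter, a 3 SD filter, slide as a term, a trended variance prior and the deposited value table gave 0 calls. In some of these the IFITM3 probes and GIMAP4 lay well short of the threshold. Their adjusted p in limma was 0.526 with the trended prior, 0.154 with slide as a term and 0.127 to 0.147 with scaling. With a replicate left out it was 0.0921 to 0.295. Leaving out each replicate gave 0 to 2 calls over all probes. Member probes with an unadjusted p under 0.05 in limma then numbered 4 to 5, beside 6 with all pairs. The count over all 32129 kept probes was then 3291 to 4914, beside 4482. The count of member probes with such a p was 3 with median foreground, 3 with the trended prior and 11 with the other matching. Of all kept probes, 3294, 3034 and 8139 had such a p in these settings. Member dye calls, 6 in the full fit, were 3 to 6 with a replicate left out, the lowest without replicate 3. IFITM3 ranged from -0.999 to -0.84 (EMBV3_22748) and from -1.03 to -0.77 (EMBV3_19072), GIMAP4 from -3.36 to -2.63 and IRF7 from -0.96 to -0.35. On slide 1 alone, an alternative chosen after seeing the data, IFIH1 turned to -0.0682. Members whose sign turned elsewhere had ratios smaller than their SE. The cause of these changes was not tested. Signal over background limits the dim members, and 4 pairs limit all.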
